A study of Mus musculus with 20 samples.

Results

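The Schlafen genes are a mouse gene family that was followed here across monocytes and microglia of the brain after stroke. The 7 members Slfn1, Slfn2, Slfn3, Slfn4, Slfn5, Slfn8 and Slfn9 were taken by symbol, in a family chosen by its expression in monocytes against microglia of these same libraries, and all 7 are listed in both deposited tables, of 16536 and 16140 genes. RNA was measured 3 days after permanent photothrombosis, which causes a cortical stroke by illuminating a photosensitive dye in the vessels. One table holds 4 libraries of GFP-positive monocytes and 4 of GFP-negative microglia from Cxcr4-GFP mice, made from total RNA. The other holds polyA RNA of the Cxcr4CreER line, with 3 libraries each of KO monocytes, control monocytes, KO microglia and control microglia. Both genotypes are labelled Cxcr4CreER, a Cre that is named for the Cxcr4 gene and is active after tamoxifen, while the design text calls the controls wt. Monocytes of that line are labelled TdT-positive and microglia TdT-negative. The labels give no age, sex or tamoxifen schedule. Population and reporter signal therefore coincide in every comparison of monocytes with microglia. KO microglia are TdT-negative cells of KO animals, and the labels do not state whether Cxcr4 was deleted in them. Of the GFP pairs, 1 came from 2 mice and 1 from a pool of 5 mice. Titles of the GFP and KO libraries share the tag BrKo, which the labels do not explain and which leaves the Cxcr4 genotype of the Cxcr4-GFP mice unstated.

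Schlafen proteins are regulators of growth and antiviral defence that are known as targets of type I interferon. The short members Slfn1 and Slfn2 have been linked to lymphocyte growth and quiescence, Slfn3 and Slfn4 are of intermediate length, and Slfn5, Slfn8 and Slfn9 are long members that carry a helicase-like domain. In mouse macrophages and myeloid cells Slfn4 is known to respond to interferon. Type I interferon acts through the receptor chains Ifnar1 and Ifnar2 and the kinases Jak1 and Tyk2, and its target genes often carry the interferon-stimulated response element (ISRE) in their promoters.

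All 7 members lie in a single cluster on chromosome 11 (RefSeq, GRCm38.p6), in the order Slfn5, Slfn9, Slfn8, Slfn2, Slfn1, Slfn4 and Slfn3, with the pseudogene Slfn10-ps between Slfn8 and Slfn2. The 250 bases before each transcription start were searched on both strands for the ISRE core, GAAA followed after any 2 bases by another GAAA, which 3 of the 7 members held, against 2.98% of 32851 promoters. The match began 155 bases before the start of Slfn5, 48 before that of Slfn8 and 45 before that of Slfn9. The gamma-activated site (GAS), TTC followed after any 3 bases by GAA, was also searched. No member held it, against 7.02% of promoters. Slfn1, Slfn2, Slfn3 and Slfn4 held the ETS core GGAAGT, which 19.7% held. The ETS core was chosen after the sequences were seen. Promoters of Slfn8 and Slfn9 were identical at 80.2% of aligned positions, while the other pairs of members ranged from 45.5% to 53.4%. Slfn8 and Slfn9 carry the same matched bases, so their ISRE matches are not independent of each other. The Slfn5 match runs into a stretch of A. The sequences run 5′ to 3′ along each gene with ISRE matches in capitals, and are the 3 promoters with a match and those of Slfn1 and Slfn4, the members nearly restricted to monocytes in the values that follow. They are Slfn5 (chr11:82951852-82952101, plus strand), Slfn8 (chr11:83020811-83021060, minus strand), Slfn9 (chr11:82991831-82992080, minus strand), Slfn1 (chr11:83116570-83116819, plus strand) and Slfn4 (chr11:83174936-83175185, plus strand). Of 2 starts listed for Slfn8, the window belongs to the first.
Slfn5: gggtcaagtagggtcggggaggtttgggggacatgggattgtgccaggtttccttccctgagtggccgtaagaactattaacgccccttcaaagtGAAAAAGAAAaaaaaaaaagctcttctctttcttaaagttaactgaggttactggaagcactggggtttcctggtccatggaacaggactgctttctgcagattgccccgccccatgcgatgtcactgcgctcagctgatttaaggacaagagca
Slfn8: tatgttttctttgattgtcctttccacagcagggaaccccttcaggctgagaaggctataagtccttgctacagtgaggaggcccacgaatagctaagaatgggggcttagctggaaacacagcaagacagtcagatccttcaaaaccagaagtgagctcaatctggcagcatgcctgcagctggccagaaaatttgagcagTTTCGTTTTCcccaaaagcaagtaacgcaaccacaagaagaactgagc
Slfn9: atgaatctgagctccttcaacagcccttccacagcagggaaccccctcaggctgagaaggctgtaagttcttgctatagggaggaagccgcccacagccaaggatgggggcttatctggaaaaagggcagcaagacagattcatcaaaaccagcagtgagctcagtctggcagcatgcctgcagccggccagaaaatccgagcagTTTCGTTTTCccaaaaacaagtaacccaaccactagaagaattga
Slfn1: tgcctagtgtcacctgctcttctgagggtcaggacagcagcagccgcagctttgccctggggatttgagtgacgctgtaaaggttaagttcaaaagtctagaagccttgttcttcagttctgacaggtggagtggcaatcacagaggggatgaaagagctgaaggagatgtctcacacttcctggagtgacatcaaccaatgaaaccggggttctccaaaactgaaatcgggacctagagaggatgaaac
Slfn4: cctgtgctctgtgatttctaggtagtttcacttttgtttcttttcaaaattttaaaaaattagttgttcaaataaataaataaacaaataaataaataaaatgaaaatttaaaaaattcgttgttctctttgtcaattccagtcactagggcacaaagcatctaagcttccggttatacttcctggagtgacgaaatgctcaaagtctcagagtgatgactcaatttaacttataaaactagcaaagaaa

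GFP libraries held 0.617 to 14.9 M reads and 3029 to 14498 detected genes, and Cre libraries held 9.73 to 56.8 M reads and 10350 to 13316 detected genes. Between 22.1% and 48.3% of the reads of each GFP library were of Rn45s, a ribosomal RNA precursor. The 3 libraries GFP microglia 3, GFP microglia 4 and GFP monocytes 3 stood apart with 5598, 3489 and 3029 detected genes. All 7 members were listed at 0 in GFP microglia 4, where 708 of 2185 genes with reads in every other GFP library were also at 0. Slfn3, Slfn8 and Slfn9 were at 0 in GFP monocytes 3, where this held for 983 of 2460 genes. Zeros of these 3 libraries are therefore given per library, and the folds and calls of the members in the GFP table are given with and without them. The summed level of 8 monocyte markers ranged from 64405 to 106924 normalized counts in KO monocytes and from 71706 to 86232 in control monocytes, against 1465 to 2552 in KO microglia and 1851 to 3318 in control microglia. Microglia markers summed to 19671 to 34004 in KO monocytes and 22120 to 28972 in control monocytes, against 226006 to 278685 in KO microglia and 172286 to 285241 in control microglia. Cxcr4 itself had 784, 1010 and 536 normalized counts in KO monocytes, against 1183, 1332 and 1166 in control monocytes (log2 fold -0.70, SE 1.10, limma adjusted p = 0.962). The KO libraries were thus lower without overlap; the deleted stretch of Cxcr4 cannot be read from values per gene.

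Monocytes carried more Slfn4 and Slfn1 than microglia in all 3 comparisons of the populations, the contrast in which the family was first noticed. These values are a description, and no p-value of a member is printed for them. Values are normalized counts, that is, reads per gene divided by a size factor per library, and folds are differences of log2(value + 1). Slfn4 had 6993, 4068 and 6154 normalized counts in KO monocytes, against 0.912, 0 and 0.862 in KO microglia. In control mice it had 12648, 4990 and 10293 in monocytes, against 0, 0 and 60.7 in microglia. In Cxcr4-GFP mice it had 289, 386, 765 and 419 in monocytes, against 0, 0, 2.50 and 0 in microglia. Every monocyte library lay above every microglia library of the same comparison. In bulk libraries, fewer cells of a type and less RNA per cell cannot be told apart. The fitted log2 fold was 11.84 (SE 1.35) in KO, 11.10 (SE 1.35) in control and 8.32 (SE 1.79) in Cxcr4-GFP mice. KO microglia held 2 Slfn4 reads in all, which puts the ratio of means at 9706, with an exact Poisson 95% interval from 2687 to 80147. GFP microglia likewise held 2 reads, for a ratio of 745 with an interval from 206 to 6149. Both intervals treat the recovered reads as counts and cover counting error only, since the reads carry no molecular identifiers. Errors in dividing reads between similar genes are not covered.

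Slfn1, the family member next to Slfn4 in the cluster, had the same division. It had 4583, 3213 and 5872 normalized counts in KO monocytes, against 0, 1.87 and 25.9 in KO microglia. In control mice it had 4985, 3375 and 4436 in monocytes, against 0, 0 and 10.3 in microglia. In Cxcr4-GFP mice the values were 56.4, 168, 338 and 72.7 in monocytes, against 0, 0.430, 1.25 and 0 in microglia. The groups did not overlap in any of these comparisons, with log2 folds of 10.02 (SE 1.26) in KO, 10.88 (SE 1.26) in control and 6.54 (SE 1.90) in Cxcr4-GFP mice. GFP microglia held 2 Slfn1 reads, and the ratio of means of 378 had an interval from 105 to 3123. Both genes entered the fits through their monocyte values alone. Microglial reads of these genes came mostly from single libraries of the Cre table. Control microglia 3 held all 71 Slfn4 and all 12 Slfn1 reads of its group, and KO microglia 3 held 30 of the 31 Slfn1 reads of KO microglia. Monocyte markers summed to 2957 in control microglia 3, against 3318 and 1851 in the other control microglia, and to 2552 in KO microglia 3, against 1465 and 2160 in the other KO microglia. Their part in these reads was not tested. Markers of other cell types differed between the populations as well. The 8 neutrophil markers summed to 32740 to 59699 normalized counts in KO monocytes, against 217 to 2617 in KO microglia, and to 12580 to 34504 in control monocytes, against 184 to 460 in control microglia. In Cxcr4-GFP mice they summed to 23.0 to 650 in monocytes, against 0 to 5.16 in microglia. Each of the 8 was detected in at least 1 library of every monocyte group. Ly6g and Ltf were at 0 in all 3 microglia groups. Per library, GFP monocytes 1, 2, 3 and 4 held 3, 3, 1 and 7 of the 8 markers. KO monocytes 1, 2 and 3 held 8, 6 and 7, and control monocytes 1, 2 and 3 held 7, 7 and 8. The sum of 262 in GFP monocytes 3 came from 1 marker. The 5 platelet and erythroid markers listed in the Cre table summed to 4433 to 6660 in KO monocytes, against 340 to 1346 in KO microglia, and to 3391 to 12219 in control monocytes, against 644 to 1319 in control microglia. B cell markers went the other way in the Cre table. They summed to 2.00 to 8.68 in KO monocytes, against 415 to 635 in KO microglia. In control mice they summed to 2.19 to 364 in monocytes, against 482 to 1017 in microglia. Their part in the population differences was not tested.

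**Figure D1:**
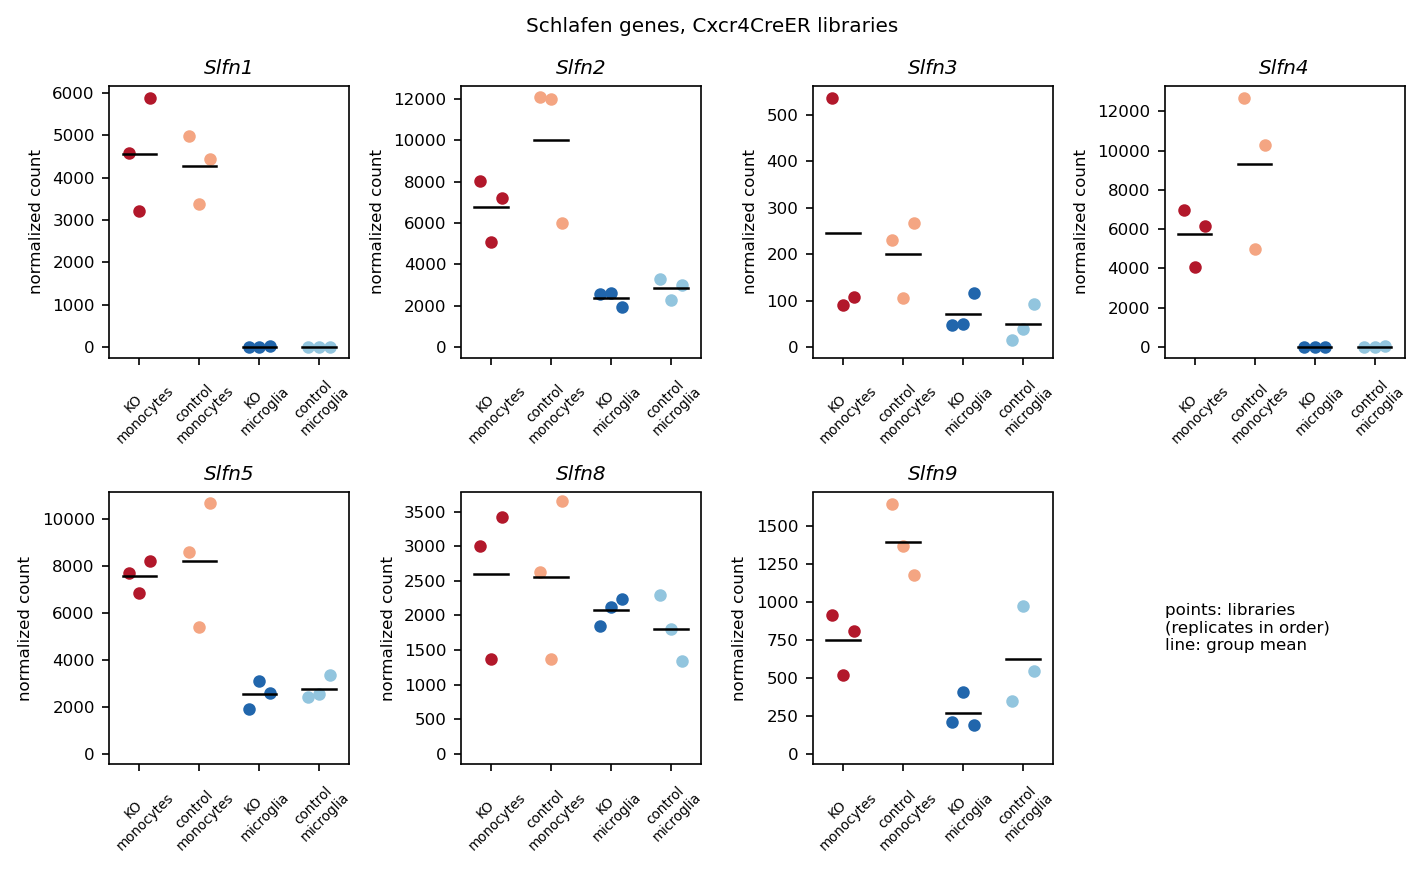
Normalized counts of the 7 Schlafen genes in the 12 Cxcr4CreER libraries, by group, on linear axes that differ between genes; points are libraries and lines are group means. Slfn1 and Slfn4 sit near 0 in both microglia groups, while Slfn8 has values of 1334 or more in every group.

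Slfn2 and Slfn5 were detected in both populations and were higher in monocytes. Slfn2 had 8015, 5092 and 7186 normalized counts in KO monocytes, against 2563, 2596 and 1958 in KO microglia. In control mice it had 12116, 11973 and 5978 in monocytes, against 3295, 2266 and 3026 in microglia. The groups were apart in both genotypes, and the fold was 2.82 in KO mice and 3.37 in control mice (log2 SE 0.32 each). Slfn5, a long member, had 7701, 6860 and 8187 in KO monocytes, against 1892, 3105 and 2581 in KO microglia. In control mice Slfn5 had 8583, 5414 and 10686 in monocytes, against 2411, 2552 and 3332 in microglia. Its groups were also apart, with a log2 fold of 1.61 (SE 0.30) in KO and 1.53 (SE 0.30) in control mice, about 3.05-fold and 2.89-fold.

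In Cxcr4-GFP mice the same pair was higher in monocytes, and the size rested partly on the empty microglia library. Slfn2 had 204, 304, 114 and 291 normalized counts in monocytes, against 59.4, 60.2, 106 and 0 in microglia. Slfn5 had 516, 654, 549 and 703 in monocytes, against 77.5, 77.0, 52.4 and 0 in microglia. Both divisions held in every library, although Slfn2 of GFP monocytes 3 (114) lay close to that of GFP microglia 3 (106). The log2 fold was 3.09 (SE 1.47) for Slfn2 and 4.65 (SE 1.29) for Slfn5. Without GFP microglia 4 these folds were 1.54 and 3.13.

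Slfn8 and Slfn9, long members that share sequence, were detected in both populations. Slfn8 had 3010, 1367 and 3420 normalized counts in KO monocytes, against 1850, 2125 and 2242 in KO microglia. In control mice Slfn8 had 2625, 1369 and 3663 in monocytes, against 2298, 1801 and 1334 in microglia. Slfn8 overlapped between the populations in both genotypes, with log2 folds of 0.22 (95% interval -0.73 to 1.18) in KO and 0.42 (-0.54 to 1.38) in control mice. Slfn9 had 915, 522 and 808 in KO monocytes, against 207, 404 and 192 in KO microglia. In control mice Slfn9 had 1650, 1369 and 1176 in monocytes, against 350, 976 and 548 in microglia. Slfn9 was thus higher in every monocyte library, with log2 folds of 1.52 (SE 0.50) in KO and 1.27 (SE 0.50) in control mice.

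Both genes overlapped between the populations of Cxcr4-GFP mice. Slfn8 had 150, 250, 0 and 240 normalized counts in monocytes, against 147, 181, 135 and 0 in microglia. Slfn9 had 23.8, 17.6, 0 and 38.8 in monocytes, against 41.3, 39.6, 1.25 and 0 in microglia. Their log2 folds of 0.33 (SE 1.92) and 0.56 (SE 1.98) changed sign in 4 and 6 of 15 alternative settings. Slfn3 had 535, 90.4 and 108 in KO monocytes, against 48.3, 48.7 and 117 in KO microglia, with overlap. In control mice Slfn3 had 230, 105 and 266 in monocytes, against 16.2, 38.4 and 93.1 in microglia, without overlap. Its log2 fold was 1.40 (95% interval -0.78 to 3.58) in KO and 2.23 (0.05 to 4.41) in control mice. In the GFP table Slfn3 stayed at or below 2.42 normalized counts, with 3 reads in monocytes and 5 in microglia, and did not enter the fit.

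**Figure D2:**
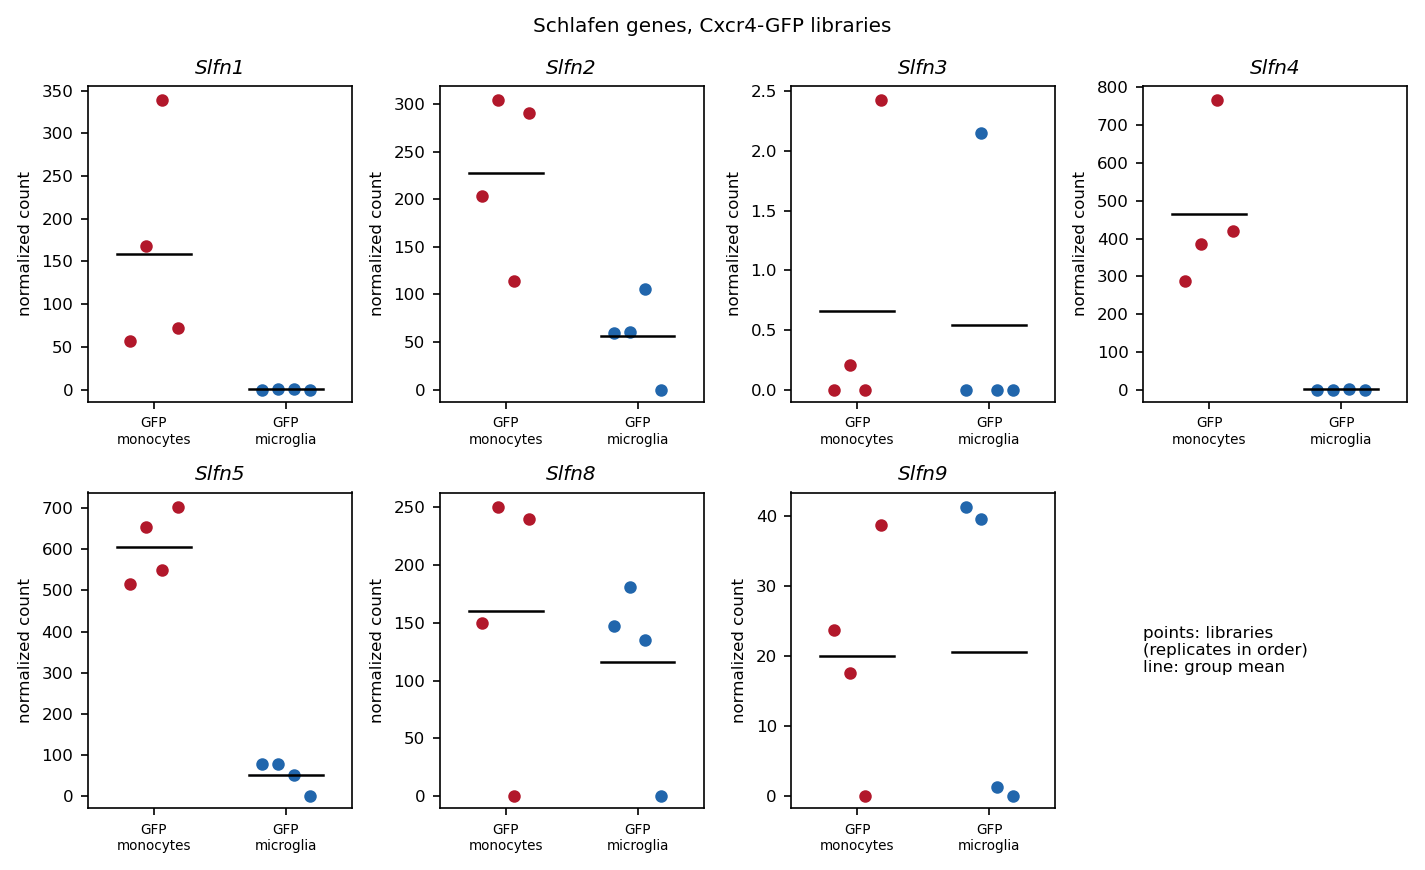
Normalized counts of the 7 Schlafen genes in the 8 Cxcr4-GFP libraries, monocytes and microglia, on linear axes that differ between genes; points are libraries and lines are group means. Slfn1, Slfn2, Slfn4 and Slfn5 are higher in every monocyte library, while Slfn8 and Slfn9 overlap and Slfn3 stays at or below 2.42.

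Counted over the family, 5 of 7 members were higher without overlap in KO monocytes, where 12.7% of 12432 genes tested were, and 6 of 7 in control monocytes, where 9.6% were. In Cxcr4-GFP mice 4 of the 6 members that entered the fit were higher without overlap, where 5.22% of 7706 genes were. Slfn1, Slfn2, Slfn4 and Slfn5 passed an adjusted p of 0.05 by limma in KO mice, where 3.85% of genes were called higher, and in control mice, where 3.46% were. In Cxcr4-GFP mice Slfn4 was the member that passed, where 0.415% of genes were called higher. The family was proposed from this contrast, so these counts describe it and are no evidence about it. The KO call of Slfn2 was lost without KO monocytes 1 (log2 fold 1.36), KO monocytes 3 (1.44) or KO microglia 3 (1.36). The GFP call of Slfn4 was lost without GFP monocytes 1, 2 or 4, with log2 folds of 8.51, 8.37 and 8.33. With those 3 few-gene GFP libraries left out, 4 of the 6 members were called: Slfn1 (log2 fold 6.22), Slfn2 (2.11), Slfn4 (8.50) and Slfn5 (2.99). Calls rose over all genes as well in that setting, to 1475 of 9669 genes tested, higher or lower, against 70 of 7706 in the main fit. The 4 members are therefore not to be set against the 0.415% of the main fit. Without those 3 libraries Slfn8 was at 0.35 and Slfn9 at -0.65. Slfn5 was also called without GFP microglia 1, 2 or 4 (log2 folds of 5.22, 5.22 and 3.13), and Slfn1 without GFP monocytes 3 (6.06).

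**Figure D3:**
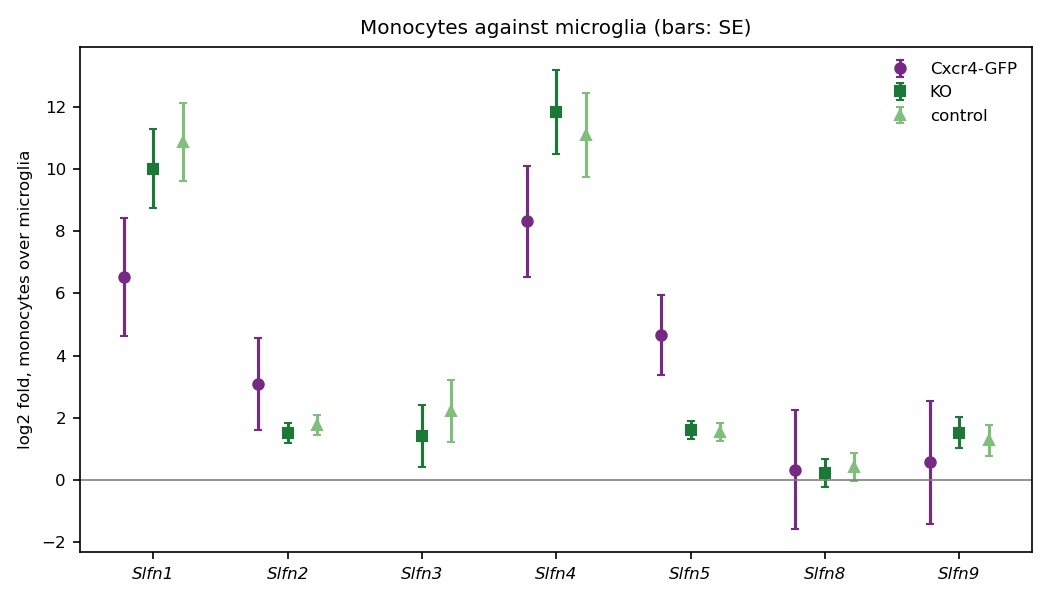
Log2 fold of monocytes over microglia for each Schlafen gene in Cxcr4-GFP, KO and control mice, with bars for the SE of the limma fit. Slfn1 and Slfn4 lie between 6.54 and 11.84 in all 3, and Slfn8 lies between 0.22 and 0.42.

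Animals or pools that gave both populations were also set against each other as pairs. Slfn1, Slfn2, Slfn4 and Slfn5 were higher in the monocyte library in 4 of 4 pairs of the Cre table and in 4 of 4 pairs of the GFP table. The pair of GFP microglia 4 could not go the other way, since every member was at 0 there. In the GFP pairs of replicates 1 and 2, which hold no few-gene library, Slfn2 differed by 1.76 and 2.32 and Slfn5 by 2.72 and 3.07. Slfn4 differed by 7.38 to 13.63 on the log2 scale within the Cre pairs, and by 7.78 to 8.72 within the GFP pairs. Slfn5 differed by 1.31 to 1.83 within the Cre pairs. Slfn8 and Slfn9 were also higher in monocytes in 4 of 4 Cre pairs, by 0.19 to 1.46 and by 1.10 to 2.23. In the GFP pairs this did not hold. Slfn8 was higher in monocytes in 3 of 4 GFP pairs, with differences from -7.09 to 7.91, and Slfn9 in 1 of 4, with differences from -1.17 to 5.31. The values 7.91 and 5.31 came from the pair of GFP microglia 4. The value -7.09 came from GFP monocytes 3, where Slfn8 was at 0. In the pairs of replicates 1 and 2, Slfn8 differed by 0.02 and 0.46, and Slfn9 by -0.77 and -1.13. Slfn3 was higher in monocytes in 3 of 4 Cre pairs (-0.11 to 3.75) and in 1 of 4 GFP pairs (-1.38 to 1.78). That GFP pair was the one of GFP microglia 4, and in the pairs of replicates 1 and 3 both libraries were at 0.

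Whether the family differed between KO and control animals was tested within each population. Cxcr4 held 1 read in KO microglia and 8 in control microglia, so its loss in microglia could not be read from these values. In monocytes 0 of 7 members were called between KO and control, where 0.0402% of 12432 genes were called by limma and 756 genes had an unadjusted p under 0.05. Slfn9 was lower in KO monocytes, at 748 ± 203 normalized counts against 1399 ± 238 in control monocytes (SD, n = 3 each), and its libraries did not overlap. Its log2 fold was -0.93 (SE 0.50, 95% interval -2.03 to 0.17), with an adjusted p of 0.847 by limma. Groups were apart in the lower direction for 1 of 7 members, where 4.15% of genes were. Slfn4 averaged 5738 ± 1506 in KO monocytes and 9311 ± 3922 in control monocytes, with overlapping libraries and a log2 fold of -0.63 (95% interval -3.59 to 2.33). Slfn2 averaged 6764 ± 1506 in KO monocytes and 10022 ± 3503 in control monocytes, for a log2 fold of -0.52 (-1.22 to 0.18).

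The other members were closer together in monocytes. Slfn5 averaged 7583 ± 672 in KO monocytes and 8227 ± 2654 in control monocytes, and its interval of -0.71 to 0.58 was the narrowest of the family. Slfn1 had a log2 fold of 0.07 (-2.68 to 2.82), Slfn8 of 0.03 (-0.93 to 0.99) and Slfn3 of -0.10 (-2.28 to 2.08). For Slfn1, Slfn3 and Slfn4 the intervals include folds of more than 4-fold either way, so that changes of that size could have been missed in this fit. The width for Slfn1 and Slfn4 depends on how microglia values near 0 enter the shared spread. The SE of the log2 fold fell to 0.67 for Slfn1 and 0.76 for Slfn4 with a pseudocount of 10, against 1.26 and 1.35 with a pseudocount of 1, and that of Slfn4 was 0.72 without control microglia 3. The neutrophil markers had summed levels of 32740 to 59699 normalized counts in KO monocytes, against 12580 to 34504 in control monocytes. Detected T cell markers summed to 90.8 to 653 in KO monocytes and 34.5 to 207 in control monocytes. The 3 listed B cell markers went the other way, at 2.00 to 8.68 in KO monocytes and 2.19 to 364 in control monocytes. Their part in the Schlafen values was not tested.

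In microglia 0 of 7 members were called, where 0.0322% of genes were called by limma and 439 had an unadjusted p under 0.05. Slfn9 had the smallest p of the family, with 268 ± 118 normalized counts in KO microglia and 625 ± 320 in control microglia (SD, n = 3 each). Its libraries overlapped, and the log2 fold of -1.18 (95% interval -2.28 to -0.08) had an unadjusted p of 0.0378 and an adjusted p of 1 by limma. Slfn2 had a log2 fold of -0.26 (-0.96 to 0.43), Slfn5 of -0.14 (-0.79 to 0.50), Slfn8 of 0.22 (-0.73 to 1.18) and Slfn3 of 0.73 (-1.45 to 2.91). Slfn1 and Slfn4 had at most 60.7 normalized counts in any microglia library, and the Slfn4 fold of -1.37 became 0.61 without control microglia 3. In no member were the groups apart, where 9.46% of genes were. The genotype difference of monocytes was then set against that of microglia. No member was called, with an adjusted p of 0.999 or more by limma. Over all genes limma called 0 of 12432 (0%) and edgeR 0, while 590 had an unadjusted p under 0.05 and DESeq2 called 276. For Slfn9 the log2 difference of the differences was 0.25 (-1.30 to 1.80). Intervals were wider for Slfn1 (-4.74 to 3.03), Slfn3 (-3.91 to 2.25) and Slfn4 (-3.44 to 4.92), so large differences could have been missed.

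**Figure D4:**
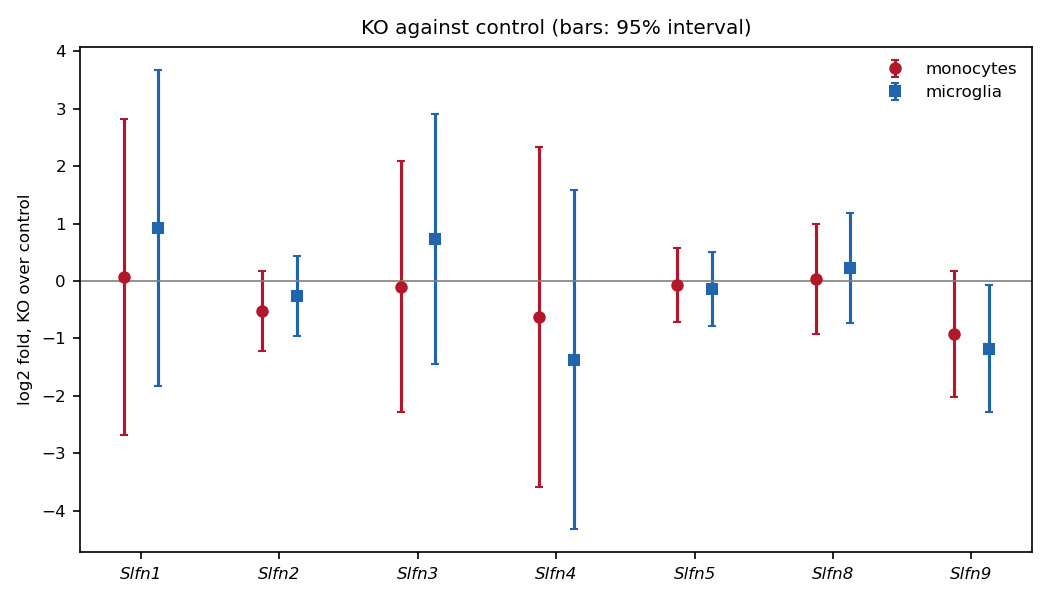
Log2 fold of KO over control for each Schlafen gene in monocytes and in microglia, with bars for the 95% interval of the limma fit. Intervals include 0 for every gene in monocytes, and for every gene but Slfn9 in microglia, where it ends at -0.08.

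Slfn9 shares sequence with other family genes, between which reads have to be divided. Of the 31-base words in the transcripts of Slfn8, 26.7% occur in other family genes and 19.1% in Slfn9, and of those of Slfn9, 19.8% occur in other family genes and 14.3% in Slfn10-ps (GENCODE M21). Slfn4 shares 15.3% of its words, 12.9% with Slfn3, while Slfn2 shares 8.14%, Slfn1 1.96% and Slfn5 none. In control monocytes 2 both Slfn8 and Slfn9 are listed with 624 reads. Slfn9 made up 23.3%, 27.6% and 19.1% of the reads of Slfn8 and Slfn9 together in KO monocytes, against 38.6%, 50% and 24.3% in control monocytes. In KO microglia the share was 10.1%, 16.0% and 7.89%, against 13.2%, 35.1% and 29.1% in control microglia. The shares overlapped in both populations. The sum of both genes was 3347 ± 1273 normalized counts in KO monocytes and 3951 ± 1087 in control monocytes, and 2340 ± 250 in KO microglia and 2436 ± 483 in control microglia (SD, n = 3 each). The sums overlapped as well, and the Slfn9 difference is uncertain where reads are shared. Slfn10-ps, the family gene that shares most words with Slfn9, is not part of these sums.

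**Figure D5:**
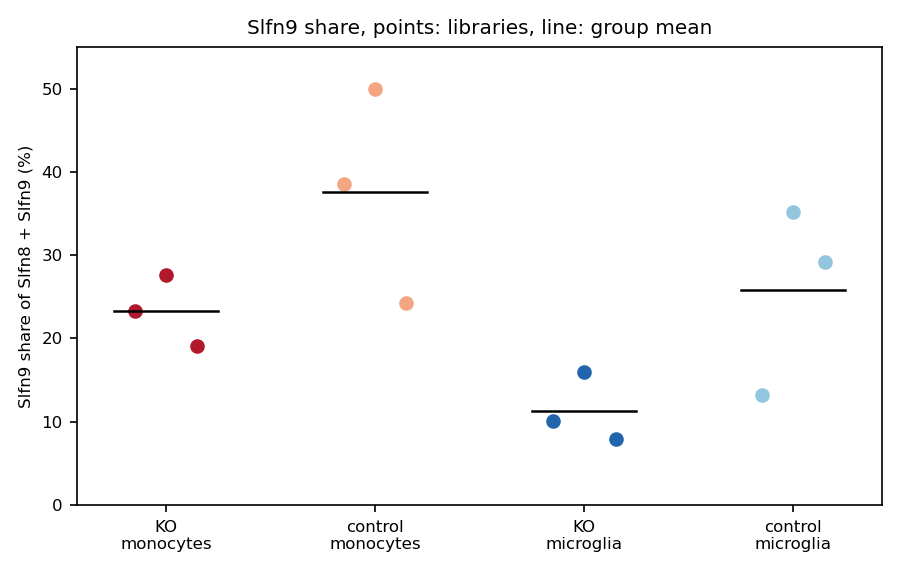
Share of Slfn9 in the summed values of Slfn8 and Slfn9, in percent, for each library of the 4 Cre groups; points are libraries and lines are group means. KO monocytes lie between 19.1% and 27.6%, and control monocytes between 24.3% and 50%, where both genes have 624 reads.

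Other genes of the family were rare or erratic. Slfn10-ps, a pseudogene that shares 32.4% of its words with family genes, had 875, 0.75 and 524 normalized counts in KO monocytes, against 1229, 85.6 and 368 in control monocytes. Values in KO microglia were 128, 393 and 3.45, against 67.5, 158 and 2.56 in control microglia. Libraries of the same group differed by 14.4-fold to 1166-fold, and no comparison called the gene. Slfn14 had 1 read and Slfnl1 3 reads in GFP microglia and none in GFP monocytes, and neither is listed in the Cre table. No gene among the 5 nearest on either side of the cluster that could be tested was called in any comparison.

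Interferon genes were summarised from lists chosen for their role, with earlier results of these data known, as the family is an interferon target. For monocytes against microglia these values are a description. Genes named there were picked from those with the smallest p of their list. In KO mice 7 of 33 interferon response genes were higher in monocytes and none lower, where 3.85% of all genes were called higher, and their median log2 fold was 1.40 against -0.25 over all genes tested. In control mice 4 of 33 were higher and none lower, where 3.46% of all genes were, and the median was 1.34 against -0.24. Irf7, a master regulator of the type I interferon response, averaged 4469 ± 2937 normalized counts in KO monocytes and 532 ± 169 in KO microglia, a log2 fold of 2.92 (SE 0.50). Rsad2, which encodes the antiviral protein viperin, averaged 11790 ± 5982 in control monocytes and 1954 ± 838 in control microglia, for a log2 fold of 2.50 (SE 0.52). In Cxcr4-GFP mice 0 of the 26 response genes tested were called higher, where 0.415% of all genes were, with a median of 1.79 against 0.51 over all genes. This list was not recounted without the 3 few-gene libraries. DESeq2 and edgeR were not counted over the lists.

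Of 13 genes for interferon receptors and signalling, Jak2, a kinase of the interferon gamma receptor, was higher in monocytes in KO mice (log2 1.68, SE 0.45) and in control mice (log2 1.95, SE 0.45). It was the single gene of that list called in either genotype, beside the same 3.85% and 3.46% of all genes. Between KO and control, 0 of 33 response genes and 0 of 13 signalling genes were called in monocytes and in microglia. The medians of the response genes were -0.16 in monocytes and -0.23 in microglia, against 0.05 over all genes in both. Of the ligand genes, Ifnb1 alone could be tested, in the Cre table, and it was not called in any comparison. It averaged 101 ± 169 normalized counts in KO monocytes and 91.1 ± 81.6 in control monocytes, and 1071 ± 731 in KO microglia and 679 ± 617 in control microglia.

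The genes whose profile lay nearest to each member were found over 7349 genes and all 20 libraries, by the root mean square difference of centred log2 values, with family members left out of the ranking. Outside the family, nearest to Slfn4 were Gpnmb (1.27), Napsa (1.49) and Chil3 (1.61), and nearest to Slfn1 were Napsa (1.22), Hpse (1.36) and Chil3 (1.49). Slfn1 and Slfn4 lay 1.35 from each other, and with members included each would be the second nearest gene to the other. Nearest to Slfn5 were Shisa5 (0.57), Ifitm3 (0.58) and Spp1 (0.61), and nearest to Slfn2 were Rpl10 (0.46), Akr1a1 (0.50) and Zc3hav1 (0.59). Slfn2 and Slfn5 lay 0.71 apart, while Slfn8 and Slfn9 lay 1.38 apart. Golph3 (0.39), Bnip3l (0.40) and Atf6 (0.40) were nearest to Slfn8, and H2afj (0.66), Psmc5 (0.67) and Sucla2 (0.68) to Slfn9. The profiles share their libraries and depth, and the distances are descriptions. They include the few-gene GFP libraries and were not recomputed without them. Slfn8 and Slfn9 were at 0 in GFP monocytes 3 and GFP microglia 4, and these zeros enter their distances.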

How the data were processed

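RNA-seq values of 20 libraries were used in 2 tables. Libraries were made with the Nugen Ovation SoLo kit (Cxcr4-GFP, total RNA) and with SMART-Seq2 (Cxcr4CreER, polyA RNA) after Qiagen miRNeasy extraction, per the labels' protocols. The submitters' processing notes name CASAVA 1.82 and DESeq2 for the first table, and for the second kallisto, DESeq2 and bcl2fastq 2.20. For the aligner of the first table, the build and the annotation: not given in the sources used here.

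The authors deposited a signal, the count of reads per gene over a library's size factor (normalized count), from which 100% of values above 0 gave whole reads within 0.01. Each table has its own normalization, so levels are compared within a table. In the Cre table altered gene names were restored, except 24 in the form of dates.

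Genes that reached 10 in 4 (GFP) or 3 (Cre) libraries were tested on log2(value + 1) with limma 3.58.1 under R 4.3.3, with an intensity trend, two-sided and unpaired. Calls were made at an adjusted p (Benjamini-Hochberg, over every gene tested) under 0.05. The GFP fit held 2 groups and the Cre fit 4 groups. Alternatives were a pseudocount of 10, no filter, upper quartile scaling, edgeR 4.0.16 and DESeq2 1.42.0 on the recovered reads, the animal or pool as a replicate block, and each library left out. Scripts were tested on simulated data.

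Libraries of the same animal or pool, per the labels, were treated as pairs in the block: 4 GFP pairs and 4 Cre pairs. Their deviations from the group means correlated at 0.24, 0.20, 0.13 and -0.11 in the GFP table and between -0.06 and 0.01 in the Cre table.

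Members, gene lists and tests were chosen with earlier results of these data known. Named genes were the members, Slfn10-ps, Slfn14, Slfnl1, the 5 nearest genes on each side, Cxcr4, up to 4 genes per list and the 3 genes nearest to each member. Promoter sequences came from RefSeq (GRCm38.p6), where all 7 members matched by symbol.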

Additional observations from a re-analysis of the deposited data

Results flagged for a closer look

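In Cxcr4-GFP mice, 3 values of single libraries lay far from the others of their group. Slfn3 was 2.42 normalized counts in GFP monocytes 4, which is 1 read, against 0 to 0.208 in the other 3 libraries. Slfn3 was 2.15 in GFP microglia 2, which is 5 reads, against 0 in the other 3. Slfn4 was 2.50 in GFP microglia 3, which is 2 reads, against 0 in the other 3. For measured values chance flags about 1 in 20 groups, and 14 groups were tested. That rate does not hold for groups near 0, where any read in 1 library is flagged when the others are at 0.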

How the results depend on the processing

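Between KO and control, in monocytes, in microglia and for the difference between them, 0 Schlafen members were called in every alternative run. In control mice 4 members were called higher in monocytes in every alternative. In KO mice 4 were called, 5 by DESeq2 (Slfn9 added) and 3 to 4 with 1 library left out. In Cxcr4-GFP mice 1 member was called, and 3 with a pseudocount of 10, 2 with upper quartile scaling, 3 by DESeq2, 0 to 2 with 1 library left out and 4 with the 3 few-gene GFP libraries removed, a setting chosen after seeing the data.

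Counts over all genes moved more. In Cxcr4-GFP mice 70 genes were called. Alternatives gave 198 with a pseudocount of 10, 38 with no filter, 127 with upper quartile scaling and 187 by DESeq2. With 1 library left out 48 to 238 were called, and without the 3 libraries 1475 of 9669 genes tested. Monocytes against microglia gave 849 genes in KO mice, 522 by edgeR, 1570 by DESeq2 and 482 to 991 with 1 library left out, and 810 in control mice, 478 by edgeR, 1614 by DESeq2 and 563 to 767 with 1 library left out. KO against control gave 5 genes in monocytes, 0 by edgeR, 339 by DESeq2 and 1 to 32 with 1 library left out. In microglia it gave 4 genes, 0 by edgeR, 109 by DESeq2 and 0 to 12 with 1 library left out. The genotype by population term gave 0 genes, 276 by DESeq2 and 0 to 1 with 1 library left out. The cause of these shifts was not tested. With the replicate block, 60 genes were called in Cxcr4-GFP mice, 740 in control and 796 in KO mice, and it changed no call of a Schlafen member.

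Limits are 3 libraries per Cre group, 0.617 to 14.9 M reads per GFP library, members that share sequence, and reporter signals that coincide with the populations.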
